A study of Rattus norvegicus with 12 samples.

Results

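Genes of the amino acid stress response that the transcription factor ATF4 commands were followed in rat liver. The set was named by 10 symbols (Asns, Trib3, Ddit3, Ddit4, Chac1, Atf3, Atf4, Atf5, Sesn2 and Nupr1), and a probe set was taken when its annotation gave exactly 1 symbol and that symbol was one of them. This left 9 genes with 1 probe set each, out of 14506 genes and 15310 probe sets with 1 symbol. Sesn2, a leucine sensor that restrains mTORC1, had no such probe set and was not analysed here. All rats were male, of the strain labelled Diet-induced obese Sprague-Dawley, and took a high fat, high sucrose diet at will from 12 to 20 weeks of age. In every diet protein gave 10% of the energy, at 4.6 kcal per gram. Leucine rats received 7.1% of energy as casein with 2.9% as leucine, dairy rats received skim milk powder, and casein rats, the controls, received casein alone, with 4 livers in each group. Added leucine therefore came with less casein, and milk protein came with the rest of skim milk. Each liver was read on 1 Affymetrix Rat Gene 1.0 ST array, and values are log2 signals, on which a step of 1 is a doubling.

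When an amino acid runs short, uncharged tRNA activates the kinase GCN2, which phosphorylates the initiation factor eIF2. General protein synthesis slows, while the ATF4 mRNA is translated more. Endoplasmic reticulum stress reaches the same point through another kinase, PERK, so the shared limb is called the integrated stress response. ATF4 binds with C/EBP proteins to a short composite element in its target genes, among them enzymes of amino acid synthesis, transporters, tRNA synthetases and its own inhibitors. In liver this programme answers diets that are low in protein or unbalanced in amino acids.

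The core of that composite element, TGATGNAA, was searched on both strands in RefSeq promoter windows of the GRCr8 build, which run from 250 bases before to 50 bases after the annotated start. A window was available for 9 of the 10 named genes, Atf3 being the one without. The core was present in 3 of these 9 windows (Trib3, Chac1 and Nupr1) and in 3.98% of 33469 rat windows. The 3 windows with a match are shown around it, and the stretch before the start of Asns is set beside that of Trib3 because these 2 genes had the highest positive correlation of the set. Capitals mark the match, which reads on the opposite strand as the core, and all stretches end at or before the annotated start. It lay 21 to 14 bases before the start in Trib3 (chr3:161275534-161275604, minus strand), 167 to 160 bases in Chac1 (chr3:126795914-126796021, plus strand) and 55 to 48 bases in Nupr1 (chr1:190645902-190646006, minus strand). The last 120 bases before the start of Asns (chr4:36769416-36769535, minus strand) held no match.
Trib3: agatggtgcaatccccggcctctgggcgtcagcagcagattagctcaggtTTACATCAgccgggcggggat
Chac1: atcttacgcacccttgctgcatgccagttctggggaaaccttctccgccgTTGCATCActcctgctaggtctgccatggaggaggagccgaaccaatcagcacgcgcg
Nupr1: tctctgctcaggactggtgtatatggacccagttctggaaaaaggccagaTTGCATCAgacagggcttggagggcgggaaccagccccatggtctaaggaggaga
Asns: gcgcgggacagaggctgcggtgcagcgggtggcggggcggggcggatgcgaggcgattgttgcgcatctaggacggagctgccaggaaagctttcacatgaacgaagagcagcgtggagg
The cyclic AMP response element TGACGTCA was in none of the 9 windows, against 1.83% of all windows. The endoplasmic reticulum stress element, searched on both strands by its consensus, was likewise in none, against 0.0657% of all. Such matches describe letters in these windows and not bound sites. Bases farther from the start, or around another start of the gene, were not searched. A window without a match, as for Asns, therefore does not show that the gene lacks the element.

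Livers were liver by their markers, as 8 of 8 hepatocyte markers, Alb, Ttr and Apoa1 among them, lay above the median probe set. The arrays had medians between 4.43 and 4.62, and their SD over probe sets ran from 2.07 (dairy replicate 3) and 2.14 (casein replicate 4) to 2.33. These 2 arrays of narrow spread stand apart. The dairy minus casein differences of Trib3, Ddit4 and Asns and the correlation of Atf3 with Nupr1 are given without them as well. Trib3 and Chac1 were dim, with median ranks at the 47.3 and 46.1 percentile of their arrays, so that a log2 difference may understate their change. The labels number 4 samples per diet without saying that each came from another animal, so the p-values measure only how far these samples spread, which may in part be technical.

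Trib3, Ddit4 and Asns had higher mean signals with dairy than with casein, by 2.24-fold, 2.24-fold and 2.30-fold, and none of the 3 passed limma after adjustment over all probe sets. In dairy livers 7 of the 9 genes lay above casein, with a median log2 difference of 0.480, against -0.0224 over all probe sets, of which 46.9% lay above 0. Without adjustment 3 of the 9 were higher and 0 lower at p under 0.05, where 10.9% of all probe sets passed that level, 4.59% higher and 6.32% lower. With adjustment 0 of the 9 were called, where 0.0849% of all probe sets were. The adjusted p of the 9 genes ran from 0.228 to 0.991. The symbols were chosen with earlier results of these data known. Counts of the 9 genes set beside shares of all probe sets, here and below, are therefore description and no test.

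Trib3 (probe set 10850775) encodes a pseudokinase that ATF4 induces and that in turn binds and restrains ATF4 and the kinase Akt. Its log2 signal was 5.77, 5.59, 5.99 and 6.30 in dairy livers, against 4.84, 4.58, 4.59 and 4.99 in casein livers. Every dairy liver lay above every casein liver. The difference was 1.16 ± 0.306 (SE, n = 4 per diet, 95% interval 0.497 to 1.82, limma adjusted p = 0.228, unadjusted p = 0.00240). In leucine livers Trib3 stood at 4.70, 4.19, 5.13 and 5.95, so that replicate 4 lay among the dairy livers and the other 3 near or below the casein livers. Leucine minus dairy was -0.921 ± 0.306 (SE, n = 4 per diet, 95% interval -1.58 to -0.257, limma adjusted p = 0.657, unadjusted p = 0.0104).

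Ddit4 (probe set 10832920), also known as REDD1, switches mTORC1 off through the TSC complex, and glucocorticoids and low oxygen raise it as well as ATF4. It stood at 6.73, 6.60, 7.70 and 7.26 in dairy livers, against 5.66, 5.84, 5.71 and 6.42 in casein livers. Here too the groups did not overlap, although dairy replicate 2 and casein replicate 4 came close to each other. The difference was 1.17 ± 0.350 (SE, n = 4 per diet, 95% interval 0.407 to 1.92, limma adjusted p = 0.295, unadjusted p = 0.00569). With leucine Ddit4 read 6.91, 5.97, 7.61 and 6.21, split between replicates 1 and 3, which reached the dairy values, and replicates 2 and 4, which stayed among the casein values. Its leucine minus casein difference of 0.771 ± 0.350 (SE, n = 4 per diet, limma adjusted p = 0.999, unadjusted p = 0.0470) was the only one of that contrast with an unadjusted p under 0.05. By limma that p was 0.0687 with quantile normalization, and with single arrays left out the difference ran from 0.459 (without leucine replicate 3) to 1.01 (without leucine replicate 2), and 0 to 3 of the 9 genes stood under 0.05.

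Asns (probe set 10860951) makes asparagine from aspartate and glutamine and is the textbook target of amino acid shortage. Its signal was 6.5, 7.24, 6.17 and 7.05 in dairy livers, against 5.22, 4.42, 6.61 and 5.90 in casein livers. Casein replicate 3 lay inside the dairy range, and the casein livers spanned more than the dairy livers. Dairy minus casein was 1.20 ± 0.482 (SE, n = 4 per diet, 95% interval 0.155 to 2.25, limma adjusted p = 0.403, unadjusted p = 0.0277), and without casein replicate 2 it was 0.83. In leucine livers Asns was 5.54, 4.62, 6.12 and 6.60, a spread like that of casein. Leucine minus dairy was -1.02 ± 0.482 (SE, n = 4 per diet, limma adjusted p = 0.723).

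**Figure D1:**
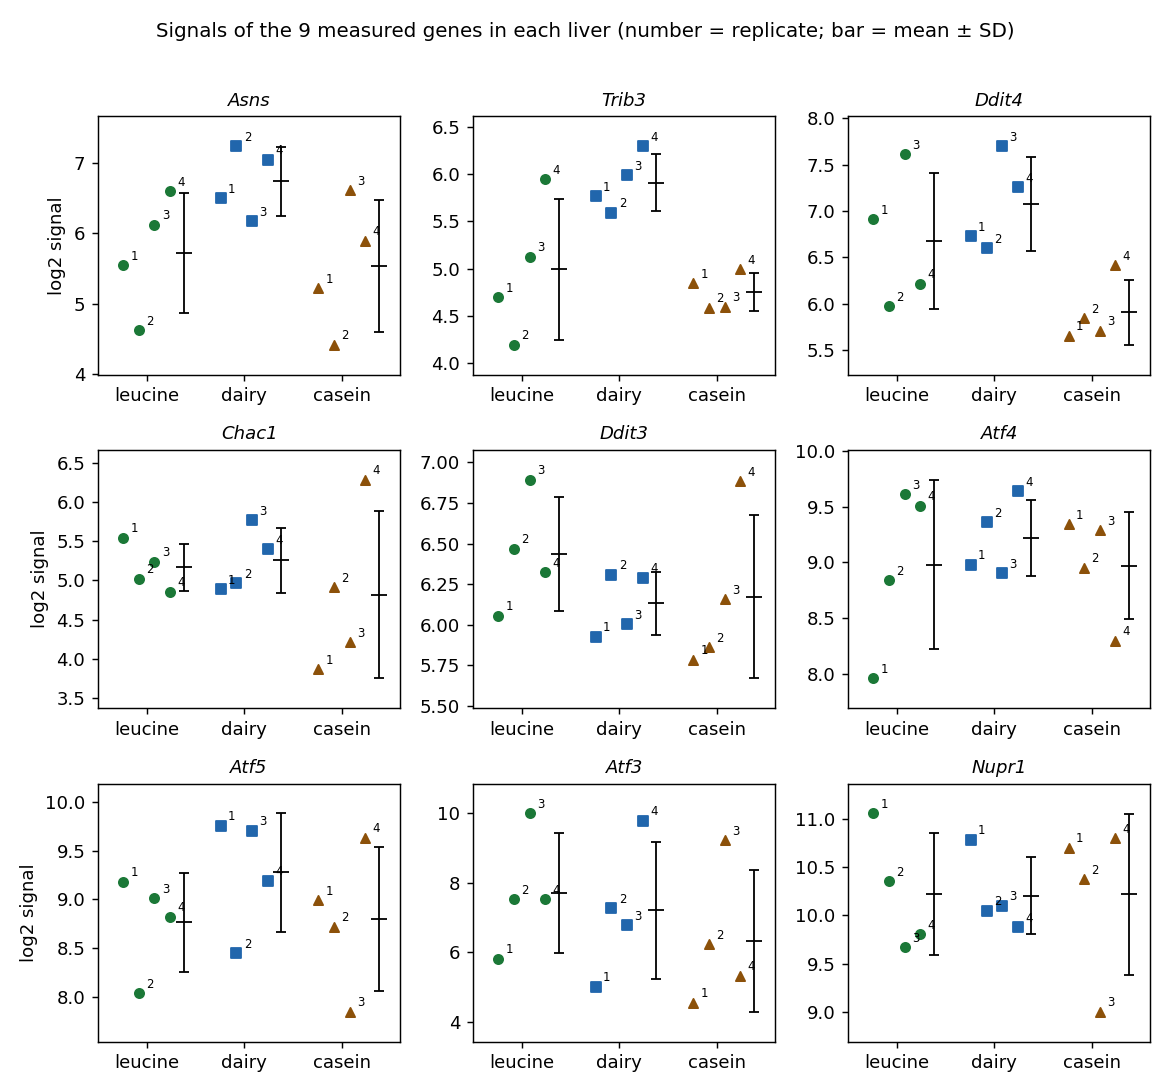
Log2 signal (vertical axes) of the 9 measured genes in each of the 12 livers, with the leucine, dairy and casein diets from left to right; numbers give the replicate and black bars the mean ± SD of 4 livers. Trib3 and Ddit4 lie higher in every dairy liver than in any casein liver, while Atf3 scatters the most within each diet.

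Groups that did not overlap were found for 2 of the 9 genes, Trib3 and Ddit4, both higher with dairy, where 4.27% of all probe sets did not overlap, 2.09% higher and 2.18% lower. Without the 2 arrays of narrow spread the dairy minus casein differences were 1.21 for Trib3, 1.13 for Ddit4 and 1.51 for Asns (limma adjusted p = 0.157, 0.173 and 0.228). With limma's array quality weights Asns and Trib3 passed (1.97 and 1.12, limma adjusted p = 0.0261 and 0.0473) and Ddit4 did not (adjusted p = 0.0608), in a fit that called 1182 probe sets in all. The largest weights went to dairy replicate 2 (2.83) and casein replicate 2 (2.09), the livers with the highest and lowest Asns signals (7.24 and 4.42). Casein replicate 3, inside the dairy range for Asns, had 0.537, and the 2 arrays of narrow spread had the smallest (0.296 and 0.293). In order of mean level, all 3 genes ran from dairy (6.74 ± 0.492 for Asns, 5.91 ± 0.305 for Trib3 and 7.07 ± 0.508 for Ddit4, SD, n = 4) through leucine (5.72 ± 0.849, 4.99 ± 0.745 and 6.68 ± 0.739) to casein (5.54 ± 0.939, 4.75 ± 0.199 and 5.91 ± 0.350). No pair of neighbours in that order passed the test, and for each gene the leucine values overlapped those of both other diets.

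Blood marker levels were above casein with both other diets. The log2 summed signal of 5 erythroid markers, with Hbb the brightest, ran from 10.40 to 12.69 in leucine livers and from 11.16 to 11.51 in dairy livers, against 9.72 to 10.64 in casein livers. The dairy sums did not overlap the casein sums, and the leucine sums did. Of the 5 markers 5 were higher with leucine (median difference 0.695) and 4 with dairy (median 0.162), and 3 lay above the median probe set, while Slc4a1 and Ahsp lay below it (means of 4.53 and 2.40 over the 12 livers). In a bulk sample more cells of a type and more RNA per cell cannot be told apart. Across the 12 livers Ddit4 had r = 0.710 with the sum (permutation p = 0.00803, adjusted p = 0.114; Spearman rho = 0.692, permutation p = 0.0151; r = 0.494 without the 2 farthest livers). Trib3 had r = 0.522 (permutation p = 0.0783, adjusted p = 0.274; Spearman rho = 0.713, permutation p = 0.0116; r = 0.852 without the 2 farthest livers). With diet means taken out, r with this sum was 0.557 for Ddit4 and 0.509 for Trib3. Hepatocyte markers were lower with dairy than with casein in 8 of 8 cases (median -0.162), Cps1 without overlap (-0.614 ± 0.200 SE, limma adjusted p = 0.322), and with leucine in 7 of 8 (median -0.133). Their sum ran from 15.58 to 16.01 in dairy livers, against 15.76 to 16.18 in casein livers. Stellate cell markers were higher with dairy in 6 of 7 cases (sums of 9.55 to 10.13, against 9.32 to 9.69) and skeletal muscle markers in 5 of 5 (sums of 6.93 to 7.22, against 6.60 to 7.09), where 46.9% of all probe sets were higher. Asns had r = -0.671 with the hepatocyte sum (permutation p = 0.0182, adjusted p = 0.143; Spearman rho = -0.643, permutation p = 0.0277; r = -0.417 without the 2 farthest livers, -0.607 with diet means taken out). Ddit4 had r = 0.682 with the muscle sum (permutation p = 0.0128, adjusted p = 0.129; Spearman rho = 0.680, permutation p = 0.0172; r = 0.517 without the 2 farthest livers, 0.427 with diet means taken out). Of the 5 muscle markers 2 lay above the median probe set (5.33), Acta1 and Ckm, each with a mean of 5.39. Mb, Myh4 and Tnnt3 lay below it (4.12, 3.36 and 3.92). The muscle sum was the highest of its diet in the 2 arrays of narrow spread, 7.22 with dairy and 7.09 with casein. Any part of other cells in the Asns, Trib3 and Ddit4 differences was not tested.

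The dairy minus casein intervals of the other 6 genes included 0. Ddit3, which encodes the proapoptotic factor CHOP, ran from 5.93 to 6.31 in dairy livers, against 5.78 to 6.88 in casein livers (difference -0.0407 ± 0.246 SE, 95% interval -0.573 to 0.492). Chac1, an enzyme that breaks down glutathione, ran from 4.89 to 5.77 with dairy and from 3.87 to 6.28 with casein (0.434 ± 0.422 SE, 95% interval -0.482 to 1.35), and the difference was 0.118 without casein replicate 1 and 0.921 without casein replicate 4. Atf4 itself ran from 8.90 to 9.64 with dairy and from 8.30 to 9.34 with casein (0.25 ± 0.350 SE, 95% interval -0.511 to 1.01). Because ATF4 is governed chiefly at translation, its mRNA need not follow its activity. Atf5, a close relative of ATF4 that takes part in the mitochondrial unfolded protein response, ran from 8.45 to 9.76 with dairy and from 7.84 to 9.63 with casein (0.480 ± 0.390 SE, 95% interval -0.367 to 1.33). The upper ends of the intervals of Chac1, Atf4 and Atf5 reached a doubling. In leucine livers Ddit3 ran from 6.06 to 6.89 and Chac1 from 4.85 to 5.55, which was 0.263 and 0.345 above casein by their means. Atf4 ran there from 7.96 to 9.61 and Atf5 from 8.04 to 9.18, with leucine minus casein differences of 0.0101 and -0.0341. With single arrays left out, leucine minus casein ran from 0.0282 to 0.831 for Chac1 (without casein replicates 1 and 4) and from 0.111 to 0.501 for Ddit3 (without leucine replicate 3 and casein replicate 4). Dairy minus casein ran likewise from 0.0254 to 0.373 for Atf4 (without casein replicates 4 and 1) and from 0.162 to 0.759 for Atf5 (without casein replicates 3 and 4).

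The leucine contrast uses the same casein livers as the dairy contrast, so the 2 share their control samples. With leucine 8 of the 9 genes lay above casein, with a median difference of 0.239, against -0.0288 over all probe sets, of which 43.8% lay above 0. No gene of the 9 passed (adjusted p = 0.999 for each by limma, and 0% of all probe sets passed). Ddit4 was the only one at an unadjusted p under 0.05, where 3.31% of all probe sets were, 1.39% higher and 1.92% lower. No gene of the 9 separated the groups, where 2.44% of all probe sets did so, 1.06% higher and 1.38% lower. Asns and Trib3 differed by 0.183 ± 0.482 and 0.239 ± 0.306 (SE, n = 4 per diet), with intervals of -0.864 to 1.23 and -0.424 to 0.903. Leucine and casein livers of the same replicate number deviated together (all 4 correlations between 0.208 and 0.532), and a fit on their 8 arrays with the replicate number as a block, chosen after seeing the data, had 0 of the 9 past adjustment (1 of all probe sets) and 2 at an unadjusted p under 0.05, Ddit4 and Atf3, where 5.84% of all probe sets were. Between the test diets 6 of the 9 genes were lower with leucine than with dairy, where 48% of all probe sets were higher. Of the 9 genes 0 passed (adjusted p from 0.657 to 0.995 by limma, 0% of all probe sets called). Trib3 was the only gene lower at an unadjusted p under 0.05, against 6.95% of all probe sets, 3.65% higher and 3.3% lower. No gene of the 9 separated these groups, where 5.09% of all probe sets did so, 2.04% higher and 3.04% lower. A moderated F test over the 3 diets gave an unadjusted p of 0.00577 for Trib3, 0.0170 for Ddit4 and 0.0583 for Asns, and adjusted p by limma of 0.455, 0.583 and 0.652, where 0.0327% of all probe sets passed with adjustment and 7.76% without.

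**Figure D2:**
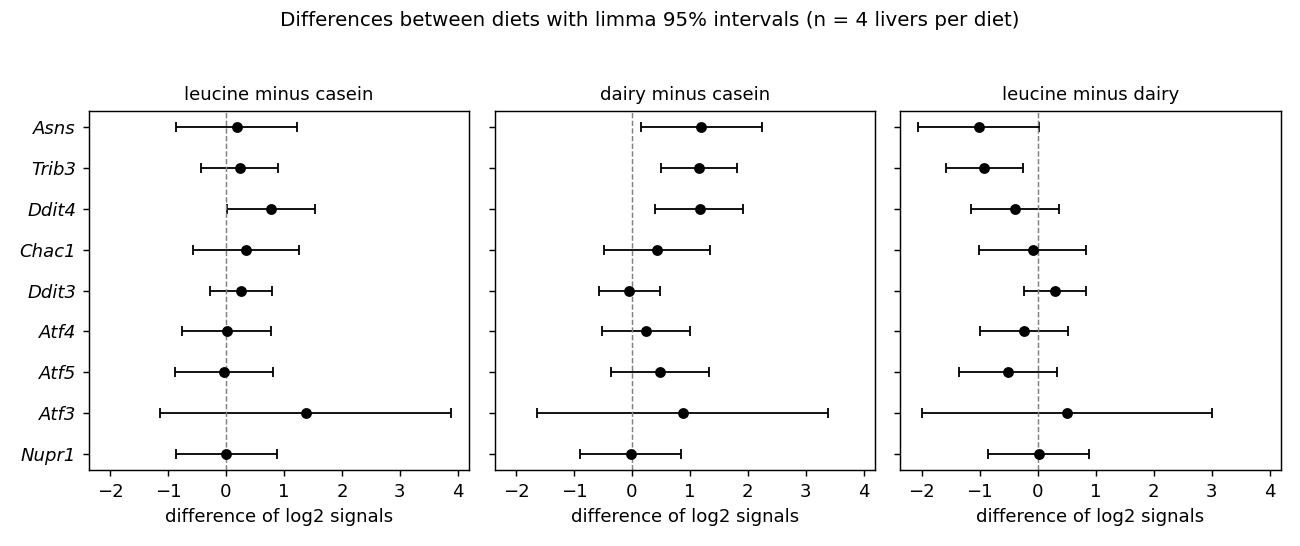
Difference of log2 signals (horizontal axes) for each gene in 3 contrasts, leucine minus casein, dairy minus casein and leucine minus dairy; points are limma estimates and bars their 95% intervals (n = 4 livers per diet). For dairy minus casein the intervals of Asns, Trib3 and Ddit4 lie above 0, and in each contrast that of Atf3 is the widest.

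Variation between livers of the same diet was largest for Atf3, a bZIP repressor that many stresses and cytokines induce within minutes. Atf3 read 5.82, 7.52, 9.99 and 7.53 in leucine livers, 5.01, 7.27, 6.78 and 9.78 in dairy livers, and 4.55, 6.24, 9.22 and 5.33 in casein livers. Its range of 5.44 exceeded that of any other of the 9 genes (1.11 to 2.82), and each diet held 1 liver above 9. Nupr1, a small chromatin protein induced in stressed pancreas and liver, read 11.06, 10.35, 9.67 and 9.80 in leucine livers, 10.78, 10.05, 10.10 and 9.87 in dairy livers, and 10.70, 10.37, 9.0 and 10.80 in casein livers. In every diet the liver with the most Atf3 had the least Nupr1. Dairy minus casein was 0.875 ± 1.16 for Atf3 (SE, 95% interval -1.63 to 3.38), and it was 0.0197 without dairy replicate 4 and 1.84 without casein replicate 3. For Nupr1 it was -0.0157 ± 0.402 (SE, 95% interval -0.887 to 0.856).

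Across the 12 livers the 36 pairs of genes were correlated, 25 positively and 11 negatively, with a median Pearson r of 0.217. After Benjamini-Hochberg adjustment over the 36 pairs 1 pair passed, Atf3 with Nupr1 (r = -0.837, permutation p = 0.000650, adjusted p = 0.0234; Spearman rho = -0.874, permutation p = 0.000400, adjusted p = 0.0144). Of all probe sets 0.157% were as negatively correlated with Atf3. The relation held when diet means were taken out (r = -0.885) and without the 2 livers farthest from the median of Atf3 (r = -0.893). The adjusted permutation p was 0.05 without casein replicate 2, 0.0731 without dairy replicate 1 and 0.0868 without both arrays of narrow spread, with r between -0.836 and -0.818. Taken as deviations from the means of the replicate numbers (replicate block), the pair had r = -0.635 and an adjusted permutation p of 0.497.

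Asns and Trib3 formed the closest positive pair (r = 0.748, permutation p = 0.00572, adjusted p = 0.103; Spearman rho = 0.678, permutation p = 0.0182, adjusted p = 0.158). In comparison 0.653% of all probe sets were as closely correlated with Trib3, and 1.54% with Asns. Part of this lay between diets, since r was 0.547 once diet means were taken out, and it was 0.607 without the 2 livers farthest from the median of Asns and 0.743 without those farthest on Trib3. Without casein replicate 3, which had high Asns and low Trib3, r was 0.867 and the pair passed (adjusted permutation p = 0.0148). Trib3 and Ddit4 had r = 0.597 (permutation p = 0.0435, adjusted p = 0.233; Spearman rho = 0.650, permutation p = 0.0264), and only 0.269 with diet means removed. It was 0.371 without the 2 livers farthest from the median of Trib3 and 0.653 without those farthest on Ddit4.

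Ddit4 also had positive coefficients with Chac1 (r = 0.629, permutation p = 0.0270, adjusted p = 0.233; Spearman rho = 0.713, permutation p = 0.0119) and with Atf5 (r = 0.589, permutation p = 0.0453, adjusted p = 0.233; Spearman rho = 0.657, permutation p = 0.0235). Diet means had little part in either, since r was 0.620 and 0.596 without them. Leaving out the 2 livers farthest from the median of Ddit4 gave 0.625 and 0.562, and leaving out those farthest on Chac1 or Atf5 gave 0.806 and 0.401. Without casein replicate 4 the pair of Ddit4 and Chac1 reached r = 0.819 and passed (adjusted permutation p = 0.0353). The signals of Chac1 ran against the spread of the arrays (r = -0.792 with the SD over probe sets, permutation p = 0.00236, adjusted p = 0.0595 over the relations with context levels, Spearman rho = -0.713, permutation p = 0.0118, r = -0.777 without the 2 farthest arrays). Ddit4 had r = -0.569 with that SD (permutation p = 0.0475, adjusted p = 0.214; Spearman rho = -0.678, permutation p = 0.0177; r = -0.620 without the 2 farthest arrays). Atf5 had r = -0.586 (permutation p = 0.0414, adjusted p = 0.214; Spearman rho = -0.483, permutation p = 0.115; r = -0.264 without the 2 farthest arrays). The 2 arrays of narrow spread gave the highest Chac1 values of the series, 5.77 with dairy and 6.28 with casein, and the highest Ddit4 value of each of those diets, 7.70 with dairy and 6.42 with casein. Over 6 alternatives, leaving out these 2 arrays among them, the coefficient of Ddit4 with Chac1 ran from 0.594 to 0.762. That of Ddit4 with Atf5 ran from 0.551 to 0.693. The part of array spread in these 3 genes was not tested.

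**Figure D3:**
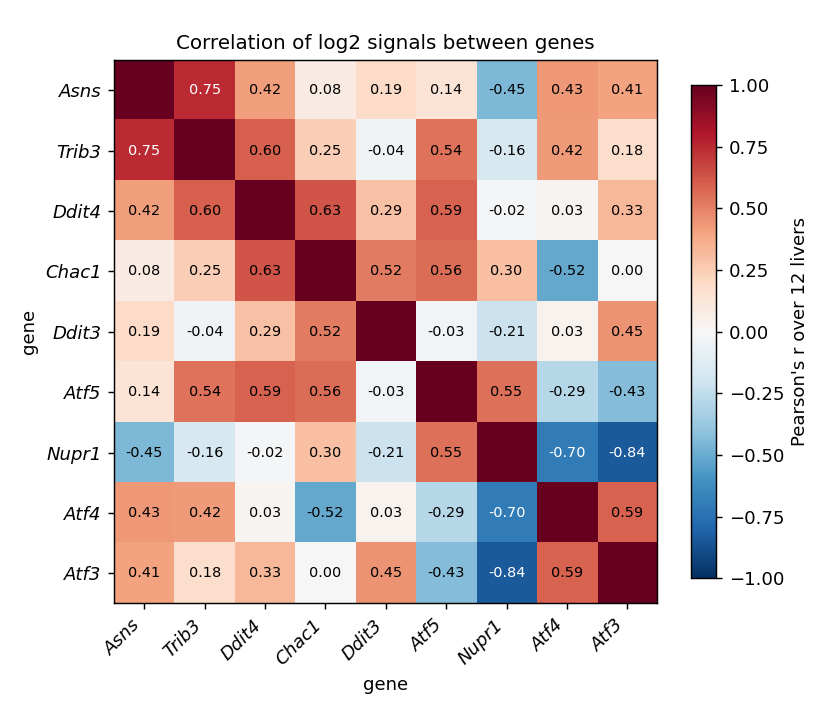
Pearson's r of log2 signals over the 12 livers for each pair of the 9 genes (both axes list genes; red is positive, blue negative). Nupr1 is opposed to Atf3 (-0.84) and Atf4 (-0.70), and Asns and Trib3 are the closest positive pair (0.75).

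Atf4 mRNA gave its strongest relations with Nupr1 and Atf3. Atf4 had r = 0.589 with Atf3 (permutation p = 0.0419, adjusted p = 0.233; Spearman rho = 0.580, permutation p = 0.0514) and r = -0.698 with Nupr1 (permutation p = 0.0109, adjusted p = 0.131; Spearman rho = -0.727, permutation p = 0.0100). Without the 2 livers farthest from the median of Atf4 these were 0.562 and -0.480, without those farthest on Atf3 the first was 0.371, and without those farthest on Nupr1 the other was -0.724. Atf4 with Nupr1 reached the threshold without casein replicate 3 (r = -0.809, adjusted permutation p = 0.0275). With Asns, Trib3 and Ddit4 its r was 0.434, 0.425 and 0.0311 (permutation p = 0.156, 0.169 and 0.924).

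Neutrophil marker levels varied with Atf3 across the livers. The summed signal of 10 neutrophil markers, with S100a8, S100a9 and Mpo as the defining ones, ran from 6.91 to 9.62 in leucine livers, from 7.28 to 9.82 in dairy livers and from 7.02 to 9.19 in casein livers, and 3 of the 10 lay above the median probe set. S100a8 and Mpo lay below it, at means of 3.79 and 3.86 over the 12 livers. Against casein 9 of the 10 were higher with leucine (median 0.344) and 9 of the 10 with dairy (median 0.427), where 43.8% and 46.9% of all probe sets were, and the sums overlapped. Atf3 followed this sum (r = 0.874, permutation p = 0.000240, Spearman rho = 0.804, permutation p = 0.00258). Over the 126 relations computed between genes and context levels the adjusted p was 0.0302 for r and 0.109 for rho, and r was 0.761 without the 2 livers farthest from the median of the markers. Nupr1 ran the other way (r = -0.794, permutation p = 0.00193, adjusted p = 0.0595; Spearman rho = -0.796, permutation p = 0.00294; r = -0.815 without the 2 farthest). Asns had r = 0.726 (permutation p = 0.00834, adjusted p = 0.114; Spearman rho = 0.737, permutation p = 0.00800; r = 0.751 without the 2 farthest). The part of neutrophil RNA in the Atf3 and Nupr1 values was not tested.

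**Figure D4:**
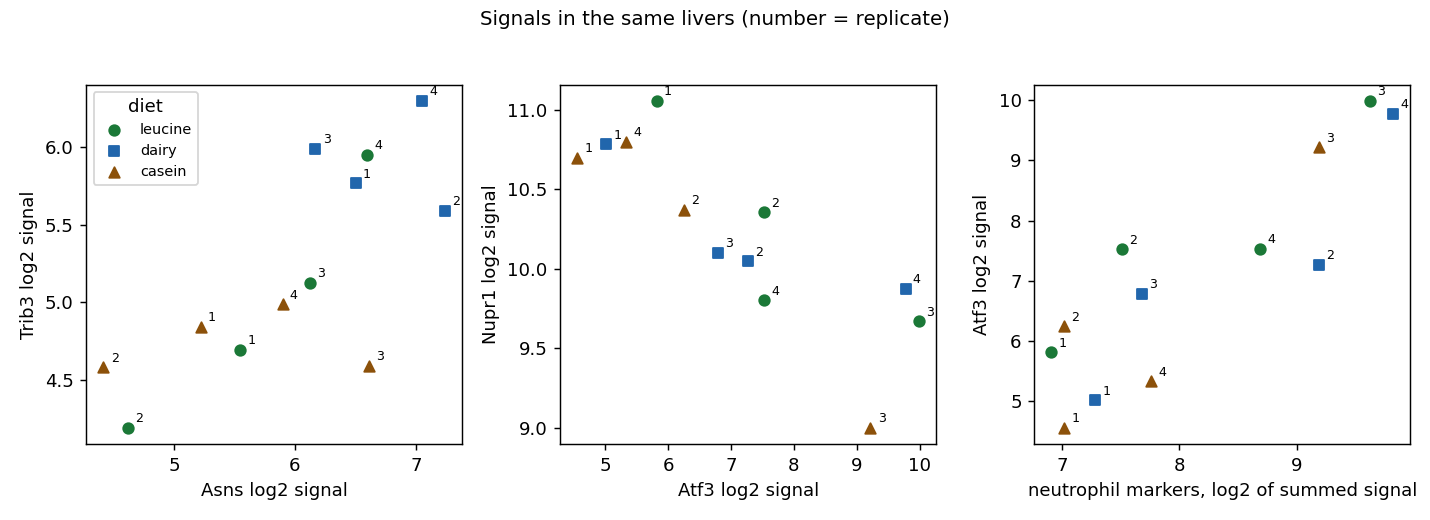
Log2 signals of Trib3 against Asns (left), Nupr1 against Atf3 (middle) and Atf3 against the log2 summed signal of neutrophil markers (right) in the 12 livers, coloured by diet and numbered by replicate. Dairy livers lie at the upper right of the left panel, while in the middle and right panels the 3 livers with Atf3 above 9 come from 3 different diets.

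Other genes of the pathway were taken from lists of textbook targets and regulators. These lists too were chosen with earlier results of these data known, so their counts beside the shares are description. Among 14 enzymes of serine, one-carbon and amino acid synthesis none passed limma for dairy minus casein with adjustment, and without it 3 were higher and 3 lower at p under 0.05, where 10.9% of all probe sets were under that level. The higher ones were Pck2, the mitochondrial form of phosphoenolpyruvate carboxykinase (1.15 ± 0.221 SE, limma adjusted p = 0.0772), Phgdh, the first enzyme of serine synthesis (1.43 ± 0.356 SE), and Psat1, the next enzyme (1.22 ± 0.397 SE). The lower ones were the cytosolic aspartate aminotransferase Got1 (-1.25 ± 0.446 SE), the cystathionine-cleaving enzyme Cth (-0.657 ± 0.289 SE) and Shmt2 (-0.260 ± 0.117 SE), which feeds one-carbon units from serine. Pck2, Got1 and Shmt2 separated dairy from casein livers, where 4.27% of all probe sets did. Between the test diets Pck2 and Phgdh were lower with leucine, each at -1.25 and without overlap (SE 0.221 and 0.356, limma adjusted p = 0.604 and 0.657), and Got1 was higher (1.35 ± 0.446 SE, adjusted p = 0.657). In that contrast 5.09% of all probe sets did not overlap, 2.04% higher and 3.04% lower. Of the 14 enzymes 3 were higher and 4 lower there at an unadjusted p under 0.05, where 6.95% of all probe sets were under that level. Against casein the leucine diet had Shmt2 at -0.352 ± 0.117 (SE, limma adjusted p = 0.999), and the median of the list was 0.0816.

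Amino acid transporters and tRNA synthetases had medians near or below that of all probe sets. Of 11 transporters 5 were higher and 6 lower in each contrast with casein (median -0.173 with leucine and -0.00260 with dairy). Of 13 genes for tRNA synthetases and tRNA export 4 were higher and 9 lower with leucine (median -0.0164) and 5 higher and 8 lower with dairy (median -0.0218, against -0.0224 over all probe sets). The glutamine transporter Slc38a3 was at -0.430 ± 0.180 with dairy (SE, limma adjusted p = 0.427), and Slc38a2, a neutral amino acid carrier, was higher with leucine than with dairy (1.13 ± 0.335 SE, adjusted p = 0.657). Among other targets and partners Adm2, a peptide hormone, was higher with dairy (1.17 ± 0.289 SE, limma adjusted p = 0.199), as were the hepatocyte factor Cebpa (0.841 ± 0.280 SE) and the translation repressor Eif4ebp1 (0.761 ± 0.313 SE), and the autophagy gene Atg5 was lower (-0.692 ± 0.256 SE). These 4 of 19 genes had an unadjusted p under 0.05, where 10.9% of all probe sets did, and the median of the list was 0.0321. Every leucine liver had less Adm2 than every dairy liver (-1.22 ± 0.289 SE, adjusted p = 0.604), where 3.04% of all probe sets were lower without overlap. With leucine Cebpb, a dimer partner of ATF4, was 0.838 ± 0.324 above casein (SE, adjusted p = 0.999). Kinases and factors upstream of ATF4 were lower than casein with leucine in 13 of 16 cases (median -0.0955) and with dairy in 12 of 16 (median -0.272), where 43.8% and 46.9% of all probe sets were higher. Ppp1cc, a catalytic subunit of the phosphatase that reverses eIF2 phosphorylation, was at -0.505 ± 0.188 with dairy (SE, adjusted p = 0.368). Gcn1, the activator of the kinase GCN2, was lower with leucine than with dairy without overlap (-0.559 ± 0.182 SE, adjusted p = 0.657), where 3.04% of all probe sets were. Chaperones and other genes of the ATF6 and XBP1 branches were higher with leucine in 9 of 20 cases (median -0.0195) and with dairy in 13 of 20 (median 0.218), with Derl1 at 0.302 ± 0.136 with dairy (SE, adjusted p = 0.450). Of 15 genes listed as parts or regulators of mTORC1, 2 were higher and 13 lower with leucine (median -0.109) and 5 higher and 10 lower with dairy (median -0.122). In either contrast 0 of these 15 had an unadjusted p under 0.05, where 3.31% (leucine) and 10.9% (dairy) of all probe sets did.

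Immediate early genes, which share with Atf3 a rapid induction, were higher with leucine than with casein in 11 of 14 cases, with a median difference of 0.797, where 43.8% of all probe sets were higher. Of these 3 had an unadjusted p under 0.05, where 3.31% of all probe sets did, and 0 passed limma with adjustment. They were the zinc finger factor Egr1 (2.06 ± 0.685 SE), Ier2 (0.944 ± 0.370 SE) and the nuclear receptor Nr4a1 (0.773 ± 0.342 SE), each with an adjusted p = 0.999. Atf3 itself differed by 1.38 ± 1.16 (SE, 95% interval -1.13 to 3.89), its leucine values overlapped the casein values, and the difference was 0.620 without leucine replicate 3 and 2.34 without casein replicate 3. Between livers of the same number Atf3 was higher with leucine in 4 of 4 pairs, by 1.26, 1.28, 0.77 and 2.20, where 5.41% of all probe sets were higher in every pair and 8.20% lower. With the replicate block the error of the difference of 1.38 was 0.229 (SE, n = 4 same-numbered pairs, 95% interval 0.852 to 1.91, limma adjusted p = 0.506, unadjusted p = 0.000289). This block was chosen after seeing the data, and the labels do not say that same-numbered livers form pairs. The leucine values of Egr1 and Ier2 did not overlap the casein values, where 2.44% of all probe sets did not. With dairy the median of the immediate early genes was 0.222, and leucine minus dairy gave 13 of 14 above 0 with a median of 0.535, where 48% of all probe sets were above 0. Glucocorticoid-induced genes had medians of 0.31 with leucine and -0.0591 with dairy. In either contrast 0 of 12 had an unadjusted p under 0.05, where 3.31% (leucine) and 10.9% (dairy) of all probe sets did. Of 10 p53 targets 1 was higher and 1 lower with dairy at that level, Bbc3 (0.497 ± 0.198 SE) and Mdm2 (-0.657 ± 0.287 SE), where 10.9% of all probe sets were under that level.

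**Figure D5:**
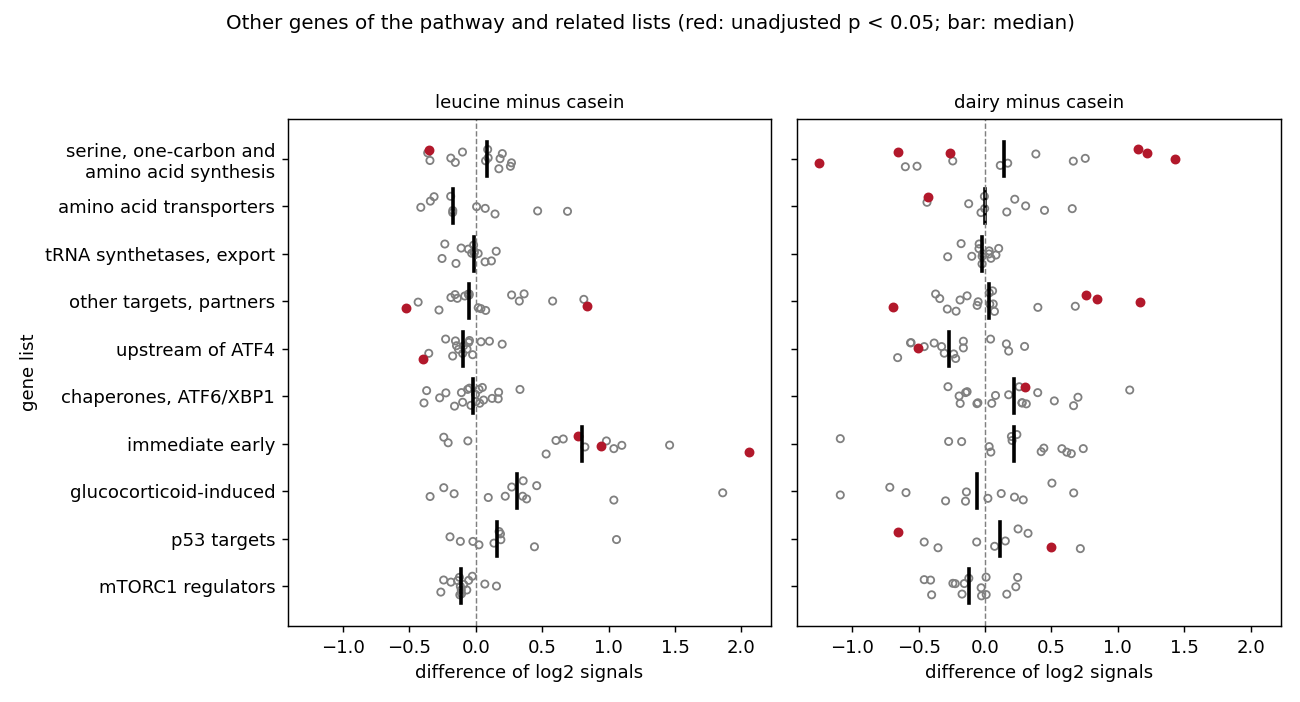
Difference of log2 signals (horizontal axes) for the genes of 10 lists (vertical axis), leucine minus casein on the left and dairy minus casein on the right; each circle is a gene, red where the unadjusted p is under 0.05, and the bar is the list's median. Serine synthesis genes reach the highest dairy values, and immediate early genes the highest leucine values.

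The same lists were set against these genes liver by liver, as a description over 12 livers that share diets and arrays. With Atf4 mRNA, 11 of the 13 tRNA synthetase and export genes had an r of 0.5 or more (median 0.607, highest for the alanyl-tRNA synthetase Aars1 at 0.770), where 9.82% of all probe sets did. With Trib3 0 of these 13 and with Ddit4 0 of 13 did so, where 9.40% and 12.7% of all probe sets did. Asns lay between, with 6 of 13 tRNA synthetase genes and 6 of 11 transporters at that level, led by the cationic transporter Slc7a1 (0.799), against 11.8% of all probe sets. Atf3 had 10 of 14 immediate early genes at that level (median 0.733, highest for Zfp36 at 0.900), against 10.5% of all. Of the 13 tRNA synthetase and export genes 8 reached it with Atf3 as well (median 0.577). Of 20 chaperone and other ATF6 and XBP1 genes 9 reached it with Atf4, 9 with Asns and 10 with Atf3, and 1 each with Trib3 and Ddit4. Atf4, too, had a positive coefficient with the neutrophil marker sum (r = 0.697, permutation p = 0.00992, adjusted p = 0.114; Spearman rho = 0.705, permutation p = 0.0121; r = 0.554 without the 2 farthest).

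Genes outside the set whose signals most resembled the 3 leading genes over the 12 livers were taken among probe sets brighter than the median. For Asns they were the importin Ipo4 (r = 0.940), the valyl-tRNA synthetase Vars1 (0.924), the glycosyltransferase Alg2 (0.915), Zbtb42 (0.902) and Atf6b (0.900). For Trib3 they were the ubiquitin-conjugating enzyme Cdc34 (0.895), the ribosomal protein Rpsa (0.871), the proteasome subunit Psmb6 (0.853), the ribosomal protein Rps9 (0.828) and the glucosidase Mogs (0.827). For Ddit4 they were Scarf2 (0.868), LOC680428 (0.851), LOC366310 (0.840), Gsc2 (0.838) and Wnt9b (0.837). Apart from LOC366310 (mean of 7.81) these were little above the median probe set of 5.33, with means of 5.82, 5.68, 5.93 and 5.86 in that order. The 3 sets of 5 had no gene in common. Of the genes most like Trib3, Rps9 was the one that passed between dairy and casein, and it rose by 1.10 with dairy (limma adjusted p = 0.0270).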

How the data were processed

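RNA of 12 rat livers, 4 per diet as labelled, was hybridised to Rat Gene 1.0 ST arrays. The deposited values are log2 signals, 1 per probe set and array, which per the submitters' processing notes came from Affymetrix Expression Console. The build was not given in the sources used here, nor were the version and algorithm. The number of arrays limits the precision.

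Of 29214 probe sets, the 15310 with exactly 1 annotated symbol were fitted with limma 3.58.1 in R 4.3.3, on 3 group means (9 residual degrees of freedom, 3.45 prior). Probe sets with several symbols (323) or none listed (13581) were left out. P-values are two-sided, adjusted by Benjamini-Hochberg over the 15310, with a threshold of 0.05 and no filter on low values. On simulated data for dairy minus casein over 15310 probe sets, 53% of changes of 1 and 94% of changes of 2 on the log2 scale were recovered. Besides these, 9 unchanged probe sets were called. The changed probe sets were drawn at random and given independent normal errors, so these shares need not hold for the genes followed here. Correlations used 100000 permutations, two-sided, adjusted over the 36 pairs of genes or the 126 relations with context levels. The symbols and lists were chosen with earlier results of these data known. List genes are named when among the 3 of largest moderated t in a contrast. Cth and Eif4ebp1 with dairy, Got1 and Shmt2 with dairy, and the leading correlated list genes were named after their values were seen. Genes most like Asns, Trib3 and Ddit4 are the 5 of highest r among brighter probe sets. The labels share replicate numbers across diets without saying why. Deviations of same-numbered arrays correlated above 0.1 in all 4 pairs of leucine and casein (0.208 to 0.532), so a fit with the replicate number as a block is given for that contrast, but only in 1 of 4 pairs of dairy and casein (-0.505 to 0.502) and 2 of 4 of leucine and dairy (-0.304 to 0.590). Alternatives changed the normalization, the probe sets tested, the variance model, array weights, a block and the arrays used.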

Additional observations from a re-analysis of the deposited data

How the results depend on the processing

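The counts of the 9 genes past the threshold stayed at 0 in every contrast and in the F test under each alternative run, with 1 exception. With array quality weights 2 genes passed for dairy minus casein, Asns and Trib3, and the cause was not tested. With the replicate block 0 genes passed in each contrast, and Trib3 differed between dairy and casein by 1.16 (limma adjusted p = 0.0977). The labels do not say what the numbers stand for. Deviations of same-numbered arrays correlated between -0.505 and 0.502 for dairy and casein, and between -0.304 and 0.590 for leucine and dairy. This block therefore shows only how the calls move. The block on the 8 arrays of leucine and casein, added after seeing the data, changed no member's call after adjustment. Leaving out 1 array at a time gave dairy minus casein differences of 1.03 to 1.27 for Trib3, 0.956 to 1.34 for Ddit4 and 0.83 to 1.56 for Asns, none past the threshold. The count of correlated pairs, 1, became 0 under the replicate block (Atf3 with Nupr1 at r = -0.635, adjusted permutation p = 0.497) and 0 without the 2 arrays of lowest SD, and it ran from 0 to 3 with single arrays left out. Over all probe sets the 13 calls of dairy minus casein became 22 with quantile normalization, 42 over all probe sets in the file, 8 with trend and robust, 1182 with array weights, 6 with only the 8 arrays of those diets and 164 without the 2 arrays of lowest SD, and ran from 3 (without casein replicate 1 or dairy replicate 1) to 237 (without casein replicate 4) with 1 array left out.

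Of 576 recomputed differences 529 kept their direction and side of the threshold and 45 turned their sign, all among genes whose interval includes 0. For dairy minus casein Nupr1 became 0.0816 with quantile normalization and 0.212 without the 2 arrays of lowest SD, and Ddit3 became 0.0140, 0.240 and, with array weights, 0.296. With single arrays left out Nupr1 ran from -0.422 to 0.179 and Ddit3 from -0.170 to 0.197. For leucine minus casein Atf4 became -0.00212 with quantile normalization, -0.0748 with array weights and -0.214 without the 2 arrays of lowest SD, Nupr1 -0.154 with array weights and Atf5 0.245 without those 2 arrays. With single arrays left out Asns ran from -0.190 to 0.549, Trib3 from -0.0805 to 0.506, Atf4 from -0.214 to 0.351, Atf5 from -0.352 to 0.245 and Nupr1 from -0.402 to 0.198. For leucine minus dairy Nupr1 became -0.0353 with quantile normalization and -0.0143 without the 2 arrays of lowest SD, and Chac1 0.0358 with array weights and 0.0810 without those 2. With single arrays left out Atf3 ran from -0.254 to 1.36, Atf4 from -0.451 to 0.101, Chac1 from -0.217 to 0.0810 and Nupr1 from -0.259 to 0.213.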
